A study of Homo sapiens with 12 samples.

Results

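Mitochondrial ribosomal proteins were examined in A2058 cells, an established human line from cutaneous melanoma. The genes were the protein-coding entries of the table whose names begin with MRPL or MRPS followed by a digit, 78 of 61587 genes in all, with 49 named for the large subunit (MRPL) and 29 for the small subunit (MRPS). The 4 groups were untreated A2058 cells, A2058 cells that received a negative control siRNA (siCNTL), and A2058 cells that received one SOX10 siRNA (siSOX10_1) or another (siSOX10_2). Each group had 3 libraries, 1 in each of 3 batches. Transfection was at a final 12.5 nM siRNA and lasted 96 hours. All 12 libraries therefore came from 1 cell line. SOX10 encodes a transcription factor that specifies neural crest derivatives such as melanocytes, and the series title concerns its role in melanoma metastasis. The comparisons here ask how the mRNAs for mitochondrial ribosome proteins stood when SOX10 was lowered. The labels do not say that the 3 libraries of a group were grown as separate cultures, and the p-values therefore cover only the spread between these libraries, which may be technical.

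The mitochondrial ribosome, or mitoribosome, translates the few mRNAs made from mitochondrial DNA, which encode core subunits of the respiratory chain and of ATP synthase. Its rRNAs are transcribed inside the organelle, while all of its proteins are encoded in the nucleus, made in the cytosol and imported. Some of these proteins have counterparts in bacterial ribosomes and others were gained during the evolution of mitochondria. Mutations in several of the genes cause inherited disorders of oxidative phosphorylation.

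Values are TPM, transcript abundances that are scaled by gene length and to the same total in every library, so depth is unknown and a gain in a few abundant mRNAs lowers all others. FTL, the ferritin light chain, took 30299 to 38904 TPM in the siSOX10_1 libraries, 9124 to 19315 TPM in the siSOX10_2 libraries and 11380 to 12188 TPM in the siCNTL libraries. Differences were tested on log2(TPM + 1) with limma over 15738 genes, with Benjamini-Hochberg adjustment over all of them and a threshold of 0.05, and each log2 fold change is followed by its standard error. A gene is said to have risen or fallen where it passed this threshold. The log2(TPM + 1) scale understates the change of low genes. All 78 mRNAs passed the filter of at least 1 TPM in at least 3 libraries.

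SOX10 mRNA, given in the order of batches 1, 2 and 3 as are all values below, stood at 30, 28.6 and 36.8 TPM in siCNTL, at 12.8, 12.8 and 3.32 TPM in siSOX10_1 and at 11.8, 8.95 and 4.24 TPM in siSOX10_2. In batch 3 it was lowest in both SOX10 siRNA groups. The 8 melanoma markers examined were SOX10 itself, the siRNA target, with MITF, MLANA, PMEL, TYR, TYRP1, DCT and S100B. All 8 fell in the mean of both siRNAs, with a median log2 fold change of -2.76. With siSOX10_1 alone 6 fell, and with siSOX10_2 alone 8. Their summed level was 6988 to 11218 TPM in siCNTL against 424 to 2852 TPM in siSOX10_1 and 391 to 2118 TPM in siSOX10_2. Of 10 markers of other cell types, 3 passed the filter. LUM, a proteoglycan of connective tissue, fell (-1.13 ± 0.150, limma adjusted p = 9.81e-05). COL1A1, a fibrillar collagen chain, and CD68, a lysosomal protein of macrophages, rose (3.33 ± 0.186, adjusted p = 6.38e-08, and 0.56 ± 0.120, adjusted p = 0.00301). The 10 summed to 220 to 252 TPM in siCNTL, 181 to 260 TPM in untreated cells, 170 to 213 TPM in siSOX10_1 and 139 to 151 TPM in siSOX10_2, nearly all of it from LUM, CD68 and COL1A1, and KRT5 was listed at 0 in every library. The part of these shifts in the results below was not tested. In bulk RNA, fewer cells of a type and less RNA per cell cannot be told apart.

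The mRNAs of the mitoribosome spanned a wide range of abundance. Mean TPM over the 12 libraries ran from 15.6 to 416 with a median of 116, and the median was 125 TPM for the large subunit and 102 TPM for the small subunit. MRPL33 (416 TPM), MRPL51 (386 TPM) and MRPL36 (329 TPM) were the most abundant. MRPL1 (15.6 TPM), MRPL50 (17.9 TPM) and MRPS17 (22.4 TPM) were the least abundant. MRPL33 and MRPL36 are small proteins of the bacterial type, MRPL51 and MRPL50 belong to the set without a bacterial counterpart, MRPL1 forms the stalk beside the tRNA exit site, and MRPS17 binds rRNA in the small subunit.

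The summed level of the 78 mRNAs was lower with each SOX10 siRNA. It was 12339, 11748 and 12187 TPM in untreated cells, 12607, 11877 and 12103 TPM in siCNTL, 9802, 9569 and 9419 TPM in siSOX10_1 and 10219, 10032 and 9725 TPM in siSOX10_2. Every SOX10 siRNA library lay below every control library. The siSOX10_1 mean was 78.7% of the siCNTL mean and the siSOX10_2 mean was 81.9% of it.

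Both subunits were lower with the SOX10 siRNAs. Large subunit mRNAs summed to 8219 ± 326 TPM (SD, n = 3) in siCNTL, 6439 ± 123 TPM in siSOX10_1 and 6771 ± 156 TPM in siSOX10_2. Small subunit mRNAs summed to 3976 ± 103 TPM in siCNTL, 3158 ± 79.7 TPM in siSOX10_1 and 3221 ± 95.6 TPM in siSOX10_2. Relative to siCNTL the large subunit stood at 78.3% and 82.4% with the 2 siRNAs, and the small subunit at 79.4% and 81.0%. The ratio of large to small subunit mRNA averaged 2.09 in untreated cells, 2.07 in siCNTL, 2.04 in siSOX10_1 and 2.10 in siSOX10_2.

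**Figure D1:**
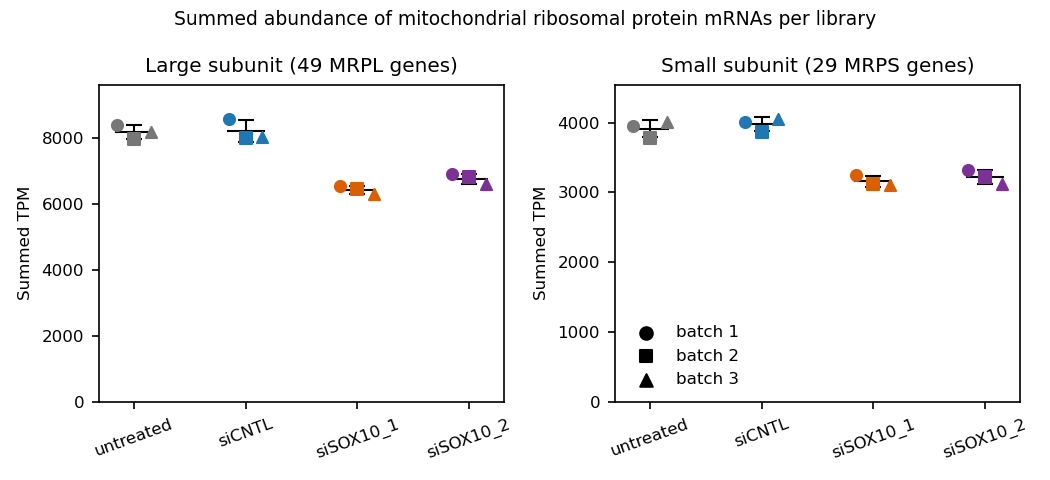
Summed TPM per library of the 49 large subunit and 29 small subunit mRNAs in the 4 groups, with one point per library (marker shape gives the batch), the group mean and an SD bar. In both panels all 6 SOX10 siRNA libraries lie below all 6 control libraries, with group means of 6439 and 6771 against 8219 TPM for the large subunit and 3158 and 3221 against 3976 TPM for the small subunit.

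In the mean of both SOX10 siRNAs against siCNTL, 41 of the 78 mRNAs fell and 2 rose. The 41 are 52.6% of the set, against 12.9% of all genes tested that fell, and the 2 are 2.56%, against 20.2% of all genes tested that rose. Among genes of at least 5 TPM in at least 3 libraries, 16.5% fell. The median log2 fold change was -0.36 over the 78 mRNAs and 0.08 over all genes tested, and 67 of the 78 had a negative value. Under median-of-ratios scaling, which sets the median change of all genes to 0.00, 47 of the mRNAs fell, none rose, and their median was -0.45. That scaling also moved the split over all genes from 12.9% lower and 20.2% higher to 16.6% lower and 16.5% higher.

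By name, 25 of 49 large subunit mRNAs (51%) and 16 of 29 small subunit mRNAs (55.2%) fell, with medians of -0.36 and -0.35. The 2 that rose were both of the large subunit. MRPS30 and MRPS18A are named for the small subunit but sit in the large one, and MRPS36 is now known as a subunit of the 2-oxoglutarate dehydrogenase complex. With those moves, 26 of 51 large subunit and 14 of 26 small subunit mRNAs fell, and the medians were again -0.36 and -0.35. Of 46 proteins with a counterpart in bacterial ribosomes, 24 fell and 2 rose (median -0.35), and of 31 classed without one, 16 fell and none rose (median -0.36). The latter class holds MRPS18A and MRPS18B, which are paralogs of a bacterial protein.

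**Figure D2:**
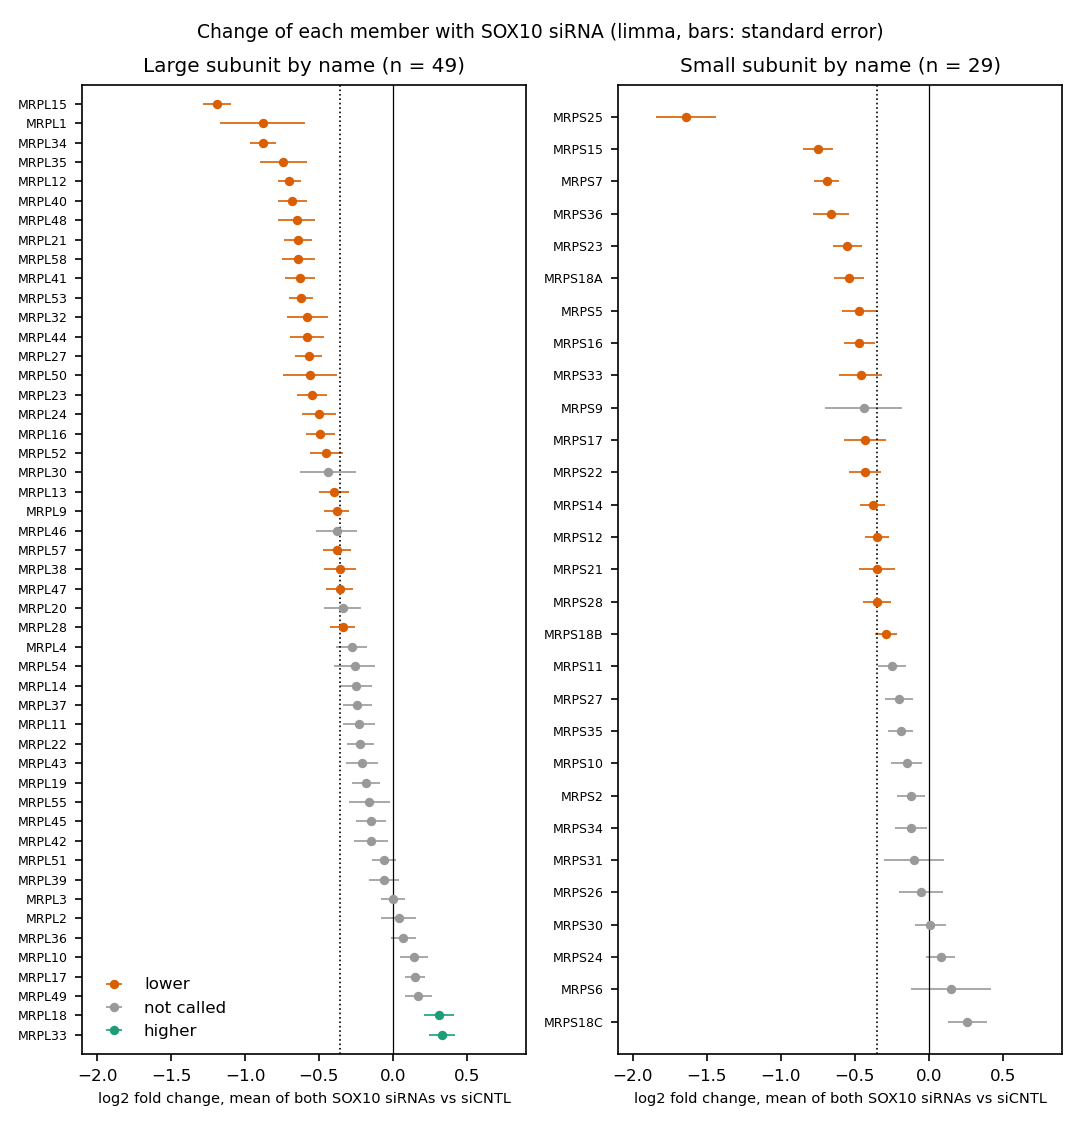
log2 fold change of each of the 78 mRNAs in the mean of both SOX10 siRNAs against siCNTL, large subunit at left and small subunit at right, with standard error bars from limma; the dotted line marks the subunit's median and colours give the call. The values run from -1.64 for MRPS25 to 0.33 for MRPL33, and the medians of the subunits are -0.36 and -0.35.

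Promoters from RefSeq (GRCh38.p14), 250 bases before to 50 after each start, were found for 69 of the 78 genes, 85 promoters in all. The motif CCGGAAG of ETS factors, which include the regulator of mitochondrial genes GABPA, was found on either strand in 38.8% of them, against 17% of the promoters of tested protein-coding genes and 10.3% of all promoters. It stood in 46.5% of the promoters of genes that fell and 31.0% of the others. The YY1 motif AAGATGG stood in 31.8%, against 7.09% for tested protein-coding genes and 5.84% for all, with 27.9% for those that fell and 35.7% for the others. The E-box CACGTG, read by MYC and MITF, stood in 10.6% against 9.28%, and in 1 of 43 promoters of genes that fell (2.33%) and 8 of 42 of the others (19.0%). The SOX motif ACAAAG stood in 4.71% against 11.8%, and in 4 of 43 promoters of genes that fell (9.3%) and 0 of 42 of the others. The NRF1 motif (10 bases) stood in 3.53% against 1.65%, and in 0 of 43 promoters of genes that fell and 3 of 42 of the others (7.14%). Its shorter part GCGCATG stood in 8.24% against 6.67%, and in 4 of 43 promoters of genes that fell (9.3%) and 3 of 42 of the others (7.14%). A longer E-box, TCATGTG, stood in 1.18% against 1.87%, and CCAAT in 32.9% against 34.8%. Apart from the NRF1 motif and its shorter part, none of these motifs contains another, and a match is no sign of binding. A gene with several promoters enters these shares several times, and shares by gene were not computed.

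To show part of the window in which these motifs were sought, the 120 bases before the RefSeq start are given for 4 genes that fell and for MRPL33, which rose, 5′ to 3′ on the gene's strand, with CCGGAAG in capitals. MRPS25 is on the minus strand (chr3:15065316-15065435), MRPL12 on the plus strand (chr17:81703247-81703366), MRPL40 on the plus strand (chr22:19432425-19432544), MRPL53 on the minus strand (chr2:74472681-74472800) and MRPL33 on the plus strand (chr2:27771599-27771718). The motif is in the MRPL40, MRPL53 and MRPL33 stretches and on neither strand of the MRPS25 and MRPL12 stretches, which do not cover the whole window searched.
MRPS25: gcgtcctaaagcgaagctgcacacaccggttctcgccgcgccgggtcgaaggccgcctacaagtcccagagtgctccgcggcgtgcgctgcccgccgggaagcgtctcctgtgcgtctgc
MRPL12: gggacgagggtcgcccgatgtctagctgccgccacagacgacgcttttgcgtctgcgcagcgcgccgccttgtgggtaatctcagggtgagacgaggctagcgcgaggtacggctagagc
MRPL40: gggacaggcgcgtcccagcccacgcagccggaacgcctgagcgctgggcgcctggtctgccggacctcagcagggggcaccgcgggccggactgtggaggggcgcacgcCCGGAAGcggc
MRPL53: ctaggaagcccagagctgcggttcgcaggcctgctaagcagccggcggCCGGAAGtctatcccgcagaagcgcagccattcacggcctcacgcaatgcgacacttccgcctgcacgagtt
MRPL33: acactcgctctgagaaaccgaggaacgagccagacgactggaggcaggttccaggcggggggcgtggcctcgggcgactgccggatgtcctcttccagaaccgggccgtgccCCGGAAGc

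MRPS25, a small subunit protein without a bacterial counterpart, had the most negative change. It stood at 161, 173 and 180 TPM in untreated cells, 181, 201 and 199 TPM in siCNTL, 74.9, 68.1 and 36.9 TPM in siSOX10_1 and 70.1, 81.5 and 49.1 TPM in siSOX10_2. The SOX10 siRNA libraries were well below all controls, and batch 3 was the lowest of each siRNA group. The mean change was -1.64 ± 0.201 (limma adjusted p = 5.66e-05), which left 31% and 34.6% of the siCNTL level. Of its exon bases, 22.2% are shared with NR2C2 on the opposite strand. No source used here states whether reads were counted by strand, and reads of the overlap cannot be told apart without it.

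MRPL15, which folds into the core of the large subunit, changed most among large subunit mRNAs. Its levels were 293, 275 and 255 TPM in untreated cells, 307, 284 and 264 TPM in siCNTL, 116, 114 and 100 TPM in siSOX10_1 and 151, 147 and 122 TPM in siSOX10_2. No SOX10 siRNA library came near a control library. The mean change was -1.19 ± 0.0954 (limma adjusted p = 1.53e-06), to 38.6% and 49.1% of siCNTL.

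MRPL34, a small protein of the bacterial type, stood at 364, 323 and 350 TPM in untreated cells, 374, 372 and 384 TPM in siCNTL, 226, 222 and 184 TPM in siSOX10_1 and 215, 205 and 180 TPM in siSOX10_2. With either SOX10 siRNA no library reached a control library, and the siCNTL libraries lay close together. It fell by 0.88 on the log2 scale (SE 0.0892, limma adjusted p = 1.12e-05). MRPL12, the stalk protein through which the ribosome recruits translation factors, stood at 253, 282 and 268 TPM in untreated cells, 283, 301 and 311 TPM in siCNTL, 191, 178 and 189 TPM in siSOX10_1 and 177, 172 and 192 TPM in siSOX10_2. Both siRNAs gave about the same level, under every control library. Its change was -0.70 ± 0.0753 (limma adjusted p = 1.69e-05).

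MRPL40, a large subunit protein without a bacterial counterpart, was at 166, 133 and 134 TPM in untreated cells, 145, 135 and 130 TPM in siCNTL, 87.3, 76.3 and 93.8 TPM in siSOX10_1 and 85, 81.6 and 87.9 TPM in siSOX10_2. All siRNA libraries were below 100 TPM and all controls above it. The change was -0.68 ± 0.10 (limma adjusted p = 0.000222). MRPL53, of the same class, was at 211, 218 and 204 TPM in untreated cells, 225, 216 and 224 TPM in siCNTL, 153, 158 and 132 TPM in siSOX10_1 and 151, 140 and 134 TPM in siSOX10_2. Again all siRNA libraries lay below all controls, with a change of -0.62 ± 0.0813 (limma adjusted p = 9.3e-05). Of the MRPL53 exon bases, 45.2% are shared with CCDC142, a gene of far lower level, on the same strand.

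MRPL35, a protein of the bacterial type, was at 100, 111 and 107 TPM in untreated cells, 97.6, 94.7 and 102 TPM in siCNTL, 68.6, 70.8 and 51 TPM in siSOX10_1 and 64.4, 63.6 and 38.4 TPM in siSOX10_2. Batch 3 was the lowest library of each SOX10 siRNA group, and no siRNA library reached a control library. The change was -0.74 ± 0.158 (limma adjusted p = 0.00287). With siSOX10_1 alone (-0.64 ± 0.183, limma adjusted p = 0.0204) the call was lost when siCNTL replicate 1, siCNTL replicate 3 or siSOX10_1 replicate 3 was left out (adjusted p = 0.0561, 0.051 and 0.0785, the last being the highest over all alternatives and 0.00242 the lowest). That call was also lost without the filter (0.0576).

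Among small subunit mRNAs, MRPS15 and MRPS7 followed MRPS25. MRPS7, which sits in the head of the subunit near the bound tRNAs, was at 306, 278 and 328 TPM in untreated cells, 334, 303 and 313 TPM in siCNTL, 196, 200 and 230 TPM in siSOX10_1 and 195, 183 and 177 TPM in siSOX10_2. It fell by 0.69 on the log2 scale (SE 0.0847, limma adjusted p = 5.56e-05), with no overlap between siRNA and control libraries. MRPS15, an rRNA-binding protein of the bacterial type, was at 225, 196 and 198 TPM in untreated cells, 223, 216 and 191 TPM in siCNTL, 148, 138 and 134 TPM in siSOX10_1 and 127, 110 and 94.9 TPM in siSOX10_2. Its siSOX10_2 libraries were all below its siSOX10_1 libraries, and both lay under all controls. The mean change was -0.75 ± 0.101 (limma adjusted p = 0.00011).

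MRPS36, the dehydrogenase subunit that kept a ribosomal name, was at 72.8, 69.8 and 81.7 TPM in untreated cells, 95.9, 73.3 and 70.7 TPM in siCNTL, 49.7, 45.7 and 42.6 TPM in siSOX10_1 and 48.9, 61.7 and 52.7 TPM in siSOX10_2. All SOX10 siRNA libraries were under all controls, and the change was -0.66 ± 0.122 (limma adjusted p = 0.00118). The remaining falls included MRPL58, a peptidyl-tRNA hydrolase that frees stalled mitoribosomes (-0.64 ± 0.111, limma adjusted p = 0.000757), and MRPL44, which has the fold of a ribonuclease (-0.58 ± 0.114, adjusted p = 0.00172). These last genes were chosen for their known roles after the values were seen. Of the 41 that fell, 22 changed by more than 0.5 on the log2 scale, and the smallest fall was -0.29, for MRPS18B.

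MRPL1 rested on fewer libraries. It was at 29.1, 24.7 and 15.7 TPM in untreated cells, 25.2, 26 and 9.26 TPM in siCNTL, 8.38, 10.5 and 8.63 TPM in siSOX10_1 and 10.8, 10.5 and 8.7 TPM in siSOX10_2. The siCNTL library of batch 3 lay within the range of the SOX10 siRNA libraries. The change was -0.88 ± 0.286 (limma adjusted p = 0.0312), and it did not pass without siCNTL replicate 1 (adjusted p = 0.172), siCNTL replicate 2 (0.165), siSOX10_1 replicate 1 (0.056) or siSOX10_2 replicate 3 (0.0531), in a range over all alternatives from 4.57e-05 to 0.172. Without the filter it did not pass either (0.082).

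**Figure D3:**
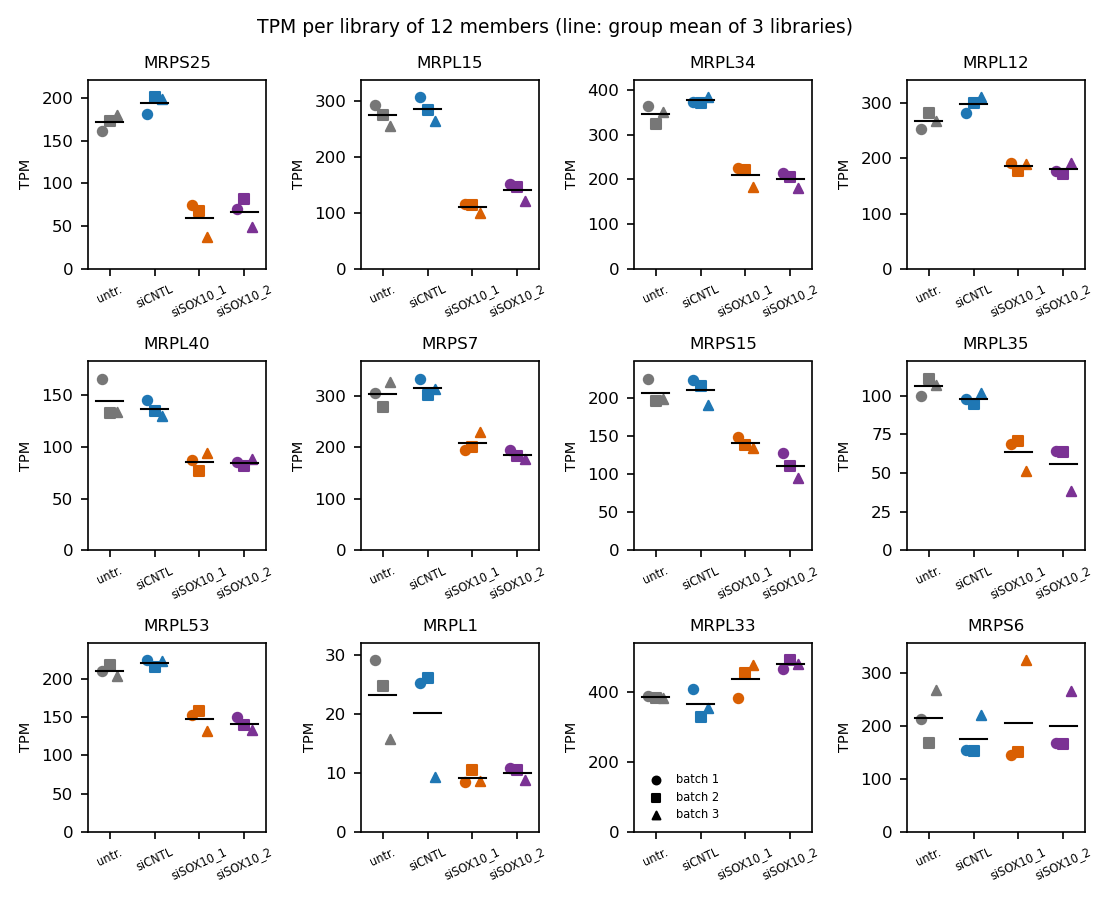
TPM in each library of 12 of the mRNAs, in the 4 groups, with a line at the group mean and the marker shape giving the batch; each panel has its own scale from 0. MRPS25 and MRPL15 fall furthest relative to siCNTL, to between 31% and 49.1% of its mean, MRPL33 is higher with the siRNAs, and MRPS6 is highest in batch 3 of every group.

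The 2 mRNAs that rose did so by a small margin. MRPL33, the most abundant of the set, was at 388, 382 and 383 TPM in untreated cells, 409, 329 and 352 TPM in siCNTL, 382, 453 and 475 TPM in siSOX10_1 and 465, 490 and 480 TPM in siSOX10_2. The first siSOX10_1 library overlapped the controls. Its change was 0.33 ± 0.0879 (limma adjusted p = 0.0107), and 21.1% of its exon bases are shared with BABAM2 on the same strand. Without siCNTL replicate 2 its adjusted p was 0.0661, and with median-of-ratios scaling it was 0.177, in a range over all alternatives from 0.00475 to 0.177.

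MRPL18, a protein of the central protuberance, was at 156, 146 and 187 TPM in untreated cells, 144, 145 and 159 TPM in siCNTL, 185, 181 and 204 TPM in siSOX10_1 and 207, 166 and 169 TPM in siSOX10_2. All SOX10 siRNA libraries were above all siCNTL libraries, and the third untreated library overlapped them. The change was 0.31 ± 0.103 (limma adjusted p = 0.035). It did not pass without siCNTL replicate 1 (adjusted p = 0.122), siCNTL replicate 2 (0.109), siSOX10_1 replicate 1 (0.0508), siSOX10_1 replicate 3 (0.0586) or siSOX10_2 replicate 1 (0.0684). Nor did it pass with untreated cells as the control (0.176), with median-of-ratios scaling (0.237), without the filter (0.0774) or without limma's trend and robust options (0.086). The range over all alternatives was 0.0129 to 0.237.

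The other 35 mRNAs, 22 of the large and 13 of the small subunit, did not pass, with changes from -0.44 for MRPS9 to 0.26 for MRPS18C. MRPL3, beside the peptidyl transferase centre, had a change of 0.00 ± 0.0798. MRPL51, the second most abundant, was at 402, 345 and 432 TPM in siCNTL, 354, 349 and 365 TPM in siSOX10_1 and 371, 394 and 428 TPM in siSOX10_2, so the groups overlapped (-0.06 ± 0.0815, limma adjusted p = 0.635). MRPL36 was at 369, 286 and 298 TPM in siCNTL, 339, 341 and 318 TPM in siSOX10_1 and 328, 328 and 338 TPM in siSOX10_2, again with overlap (0.07 ± 0.0849, limma adjusted p = 0.556). A p that misses the threshold does not show that levels were equal. The 2 lowest mRNAs after MRPL1 fell, and neither call held in all settings. MRPL50 had a change of -0.56 ± 0.183 (limma adjusted p = 0.0322) and MRPS17 of -0.43 ± 0.143 (adjusted p = 0.0364). The MRPL50 call was lost without siCNTL replicate 1 (0.165), siCNTL replicate 2 (0.11), siSOX10_1 replicate 3 (0.054) or siSOX10_2 replicate 3 (0.0554), in a range over all alternatives from 0.00358 to 0.165. With only the compared groups (0.0551) and without the filter (0.0733) it was lost as well. The MRPS17 call was lost in 6 fits that left out 1 library, without any one siCNTL library, without siSOX10_1 replicate 2 or 3, or without siSOX10_2 replicate 3, with adjusted p from 0.0543 to 0.118, and over all alternatives from 0.00629 to 0.118. Without the filter it was lost too (0.0728).

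Counted by library rather than by test, 33 of the mRNAs (21 of the large and 12 of the small subunit) had all 6 SOX10 siRNA libraries below all 6 untreated and siCNTL libraries. That was so for 9.37% of all genes tested. None had all 6 siRNA libraries above all controls, which was the case for 14% of all genes tested.

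**Figure D4:**
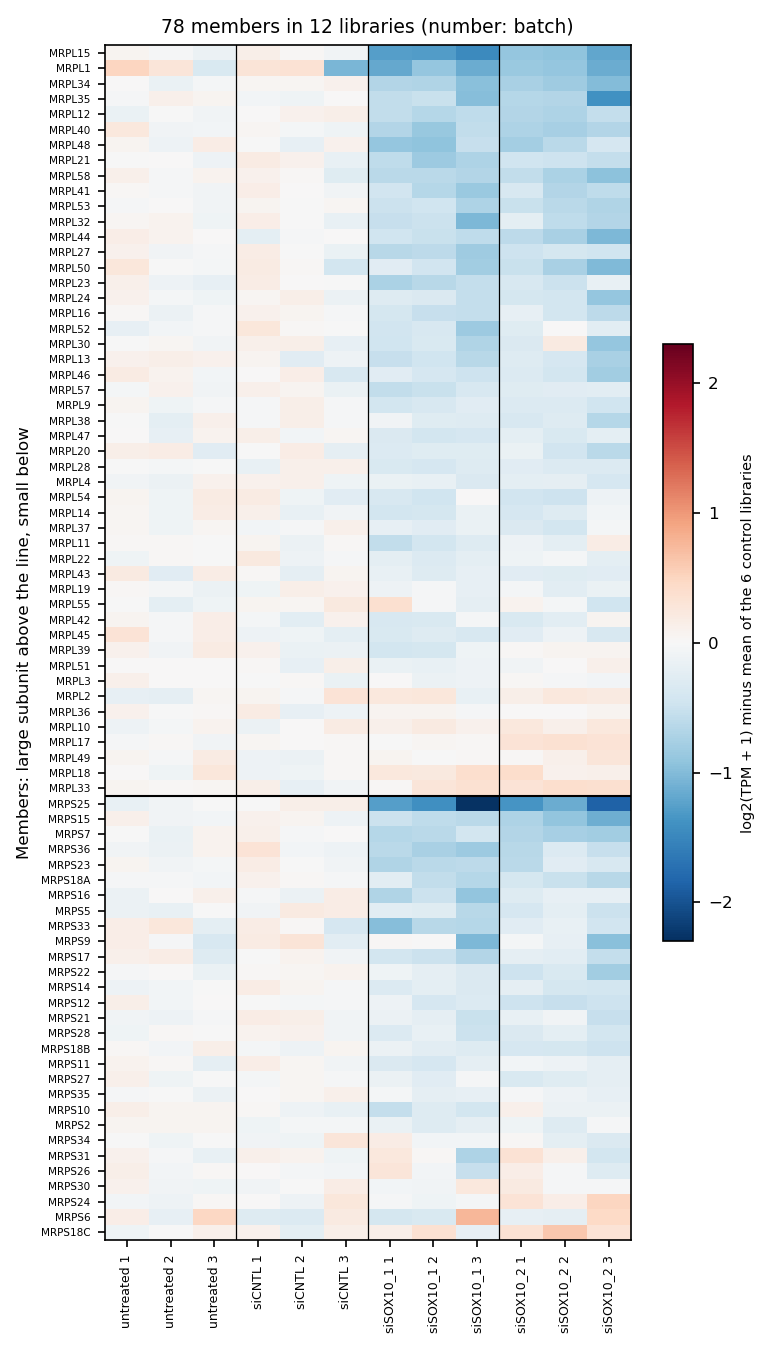
Heat map of the 78 mRNAs (rows, large subunit above the line and small subunit below it) in the 12 libraries (columns), coloured by log2(TPM + 1) minus the mean of the 6 control libraries. The colours run from -2.27, for MRPS25 in a siSOX10_1 library, to 0.76, and most rows are below 0 in all 6 SOX10 siRNA columns.

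Each siRNA was next taken alone, and both comparisons use the same siCNTL libraries. With siSOX10_1, 36 of the 78 mRNAs fell and 1, MRPL18 (0.35 ± 0.118, limma adjusted p = 0.0454), rose, while 11.7% of all genes tested fell and 15.6% rose. With siSOX10_2, 34 fell and 2 rose, while 10.4% of all genes tested fell and 18.4% rose. The 2 were MRPL33 (0.40 ± 0.102, limma adjusted p = 0.00969) and MRPL17 (0.30 ± 0.0787, adjusted p = 0.0127). The median log2 fold change was -0.36 with siSOX10_1 and -0.32 with siSOX10_2. In the large subunit the medians were -0.37 and -0.31, and in the small subunit -0.35 and -0.33. The MRPL18 call with siSOX10_1 was lost in 5 of the fits that each left out 1 library (untreated replicate 1, siCNTL replicate 2, siSOX10_1 replicate 2 or 3, or siSOX10_2 replicate 2), where no mRNA of the set rose.

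With both siRNAs, 29 of the mRNAs fell, 20 of the large and 9 of the small subunit, and none rose. Of all genes tested, 7.99% fell with both. The 8 with the largest smaller change were MRPS25, MRPL15, MRPL34, MRPL12, MRPL40, MRPL35, MRPS7 and MRPL53. MRPS25 had changes of -1.74 ± 0.232 and -1.55 ± 0.232, and MRPL15 of -1.36 ± 0.110 and -1.02 ± 0.110. A negative change with both siRNAs was seen in 63 of the 78 and a positive change with both in 8.

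Within batches, the median of siSOX10_1 minus siCNTL over the 78 mRNAs was -0.36, -0.35 and -0.37 on the log2 scale in batches 1, 2 and 3, with 67 negative in each. For siSOX10_2 it was -0.33, -0.31 and -0.33, with 61, 62 and 62 negative. Large minus small subunit median changes, over both siRNAs, were -0.11, -0.08 and 0.08 in the 3 batches. Their sign thus differed between batches and their SD was 0.103, so no difference between the subunits beyond the spread of the batches was seen.

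In the direct comparison of siSOX10_2 with siSOX10_1, none of the 78 passed in either direction by limma, while 1.07% of all genes tested were higher and 0.489% lower. At an unadjusted p under 0.05, 11 of the 78 were higher and 4 lower. Of the 15738 genes tested, 1569 were higher and 704 lower at that level. With the batch as a block, MRPS16 (0.48, adjusted p = 0.0479), MRPS24 (0.38, 0.0407) and MRPL15 (0.34, 0.0429) passed as higher with siSOX10_2. In that fit 2.1% of all genes tested were higher and 0.998% lower. MRPS16, an rRNA-binding protein, was at 145, 167 and 126 TPM with siSOX10_1 and 193, 208 and 206 TPM with siSOX10_2, against 233, 216 and 265 TPM in siCNTL. The siSOX10_2 libraries lay above all siSOX10_1 libraries and below all siCNTL libraries. MRPL17, a protein near the exit of the peptide tunnel, was at 176, 183 and 180 TPM with siSOX10_1, 220, 224 and 221 TPM with siSOX10_2 and 183, 177 and 180 TPM in siCNTL. These groups did not overlap between the siRNAs, but the difference did not pass over all genes (0.30 ± 0.0787, limma adjusted p = 0.0818). MRPS16, MRPS24 and MRPL17 were named after their values were seen.

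The control siRNA against untreated cells showed no called mRNA of the set by limma, and 0% of all genes tested passed in either direction. At an unadjusted p under 0.05, 1 was lower and none higher, while 283 of the 15738 genes tested were lower and 298 higher. The one of the set was MRPL45 (-0.29 ± 0.117), chosen after its value was seen. The median change was 0.03 and the summed level in untreated cells was 99.1% of that in siCNTL.

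Batch 3 was compared with batches 1 and 2 across the 4 groups, since several mRNAs stood apart there. By limma, 7 of the 78 were lower and 2 higher in batch 3, while 9.17% of all genes tested were lower and 1.49% higher. Under median-of-ratios scaling the balance turned, to 1 lower and 9 higher of the 78, with 4.68% of all genes tested lower and 4.84% higher. MRPS6, a small subunit protein of the bacterial type, was at 212, 167 and 267 TPM in untreated cells, 155, 153 and 220 TPM in siCNTL, 144, 150 and 324 TPM in siSOX10_1 and 167, 166 and 265 TPM in siSOX10_2. Batch 3 was the highest in all 4 groups (0.70 ± 0.101, limma adjusted p = 0.00285), and the siRNA groups overlapped the controls.

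MRPS9, whose bacterial counterpart reaches the bound tRNA with its tail, was at 47.8, 42 and 32.8 TPM in untreated cells, 48.5, 52.5 and 35.7 TPM in siCNTL, 43.2, 42.4 and 20.4 TPM in siSOX10_1 and 41.5, 37.2 and 21.3 TPM in siSOX10_2. Batch 3 was the lowest in all 4 groups (-0.70 ± 0.112, limma adjusted p = 0.00419). Its change with the SOX10 siRNAs, -0.44 ± 0.261, did not pass (limma adjusted p = 0.22), and it passed once the batch entered the fit as a block (adjusted p = 0.0163). The other calls in batch 3 were MRPL1 (-0.62), MRPS31 (-0.47), MRPL50 (-0.39), MRPL46 (-0.31), MRPL32 (-0.30) and MRPL24 (-0.26) as lower, and MRPL42 (0.26) as higher. With any 1 of the 12 libraries left out, 2.69% to 13.7% of all genes tested were lower in batch 3 and 0.456% to 2.14% higher. Of the mRNAs of the set, 1 to 2 were then higher and 1 to 10 lower. The count fell to 1 without siSOX10_1 replicate 2 or without any one siSOX10_2 library, to 2 without siSOX10_1 replicate 1 or either of siCNTL replicates 2 and 3, to 3 without untreated replicate 1, and to 4 without siCNTL replicate 1 or siSOX10_1 replicate 3.

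Other parts of mitochondrial gene expression were mixed. Of 16 mitochondrial translation factors, 7 (43.8%) fell and none rose in the mean of both siRNAs, with a median of -0.40. Over all genes tested, 12.9% fell and 20.2% rose. MRRF, which recycles the ribosome after termination, was at 19.2, 23.5 and 13.1 TPM in siCNTL, 10.4, 8.43 and 3.61 TPM in siSOX10_1 and 11, 8.01 and 8.53 TPM in siSOX10_2. Its siRNA libraries lay below its siCNTL libraries (-1.10 ± 0.270, limma adjusted p = 0.00708). SLIRP, the partner of LRPPRC in holding mitochondrial mRNAs stable, fell to 48% and 55.3% of siCNTL (-0.96 ± 0.132, limma adjusted p = 0.000127). MTFMT, which formylates the initiator tRNA, and TACO1, an activator of translation, fell by 0.98 and 0.86 on the log2 scale.

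Factors that assemble the mitoribosome went both ways, with 3 of 25 lower (12%), 3 higher (12%) and a median of -0.05, against 12.9% lower and 20.2% higher over all genes tested. C1QBP, an abundant matrix protein needed for mitochondrial translation, was at 788, 737 and 835 TPM in siCNTL, 438, 423 and 506 TPM in siSOX10_1 and 418, 425 and 520 TPM in siSOX10_2. It fell without overlap (-0.79 ± 0.0952, limma adjusted p = 4.42e-05). The GTPase MTG1 (-0.63) and the pseudouridine synthase TRUB2 (-0.43) fell as well. METTL15, a methyltransferase for the small subunit rRNA, MPV17L2 and the helicase DHX30 rose by 0.79, 0.45 and 0.30. Of 5 ribosome subunits that carry other names, CHCHD1 fell (-0.31 ± 0.0827, limma adjusted p = 0.0109) and none rose.

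The mitochondrial aminoacyl-tRNA synthetases had 3 of 17 lower (NARS2 -1.19, MARS2 -1.03 and CARS2 -0.55) and 2 higher (EARS2 0.45 and IARS2 0.37), with a median of -0.10. These are 17.6% and 11.8% of the list, against 12.9% and 20.2% of all genes tested. Among 14 genes for mitochondrial transcription and its regulators, 4 fell (28.6%) and 3 rose (21.4%), with a median of -0.03. PPARGC1A, a coactivator that promotes mitochondrial biogenesis, was at 12.4, 13.6 and 9.77 TPM in siCNTL, 4.03, 4.08 and 0.393 TPM in siSOX10_1 and 4.2, 1.9 and 0.111 TPM in siSOX10_2. It fell (-2.14 ± 0.472, limma adjusted p = 0.00393), with the lowest values in batch 3. ESRRA, a nuclear receptor that works with it, MYC and the elongation factor TEFM fell by 0.92, 0.82 and 0.61. POLRMT, the mitochondrial RNA polymerase, rose (0.75 ± 0.130, limma adjusted p = 0.000728), as did PPRC1 (0.64) and NRF1 (0.55).

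Of the mitoribosomal RNAs, MT-RNR1 of the small subunit was at 533, 478 and 357 TPM in siCNTL, 290, 303 and 343 TPM in siSOX10_1 and 339, 393 and 423 TPM in siSOX10_2. The siSOX10_2 libraries overlapped siCNTL, and the mean change was -0.38 ± 0.124 (limma adjusted p = 0.0308). MT-RNR2 of the large subunit was at 5390, 4800 and 4930 TPM in siCNTL, 5480, 5430 and 5700 TPM in siSOX10_1 and 4950, 5800 and 6050 TPM in siSOX10_2, and did not pass (0.14 ± 0.125, limma adjusted p = 0.422). How fully the low-input cDNA kit captured these rRNAs was not tested, so their TPM need not follow their amounts in the cell.

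Lower levels were also common in the cytosolic ribosome and among genes named for complex I. Of 83 cytosolic ribosomal protein genes tested, 60 (72.3%) fell and 1, RPS27L (0.35), rose, with a median of -0.36, the same as over the mitochondrial set. Over all genes tested, 12.9% fell and 20.2% rose. With siSOX10_1 alone 61 of the 83 fell (median -0.44), and with siSOX10_2 alone 39 fell (median -0.27). Of all genes tested, 11.7% fell with siSOX10_1 and 10.4% with siSOX10_2. Complex I subunits were taken by name (NDUFA, NDUFB, NDUFC, NDUFS or NDUFV and a digit). Of these 39 genes, 30 (76.9%) fell and 1, NDUFA4L2 (1.02), rose, with a median of -0.46. The list holds NDUFC2-KCTD14 beside NDUFC2, and a name does not show that a gene encodes a subunit. NDUFB9, a subunit of the membrane arm, fell to 47.5% and 44.5% of siCNTL (-1.12 ± 0.0679, limma adjusted p = 1.35e-07).

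**Figure D5:**
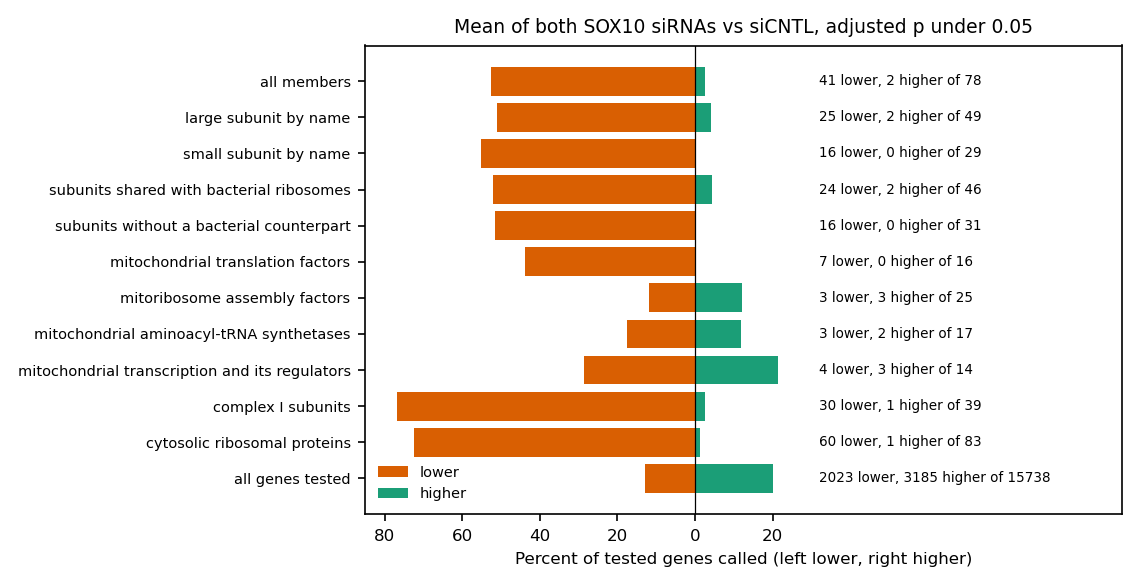
Percent of tested genes that fell (left) or rose (right) in the mean of both SOX10 siRNAs against siCNTL, for the mitochondrial ribosomal proteins, their subgroups, related gene lists and all genes tested; counts are printed at right. The share that fell was 52.6% for the 78 mitoribosome mRNAs, 72.3% for cytosolic ribosomal proteins, 76.9% for genes named as complex I subunits and 12.9% for all genes tested.

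Several of the genes share their surroundings with another gene. A protein-coding gene on the opposite strand began within 1000 bases of the start of 28 of the 78 (35.9%), of 13 of the 41 that fell (31.7%) and of 18.7% of 12345 tested protein-coding genes. MRPL46 and MRPS11 start 63 bases from each other. In the fit without a batch term, neither passed in the mean of both siRNAs (-0.38 ± 0.140, limma adjusted p = 0.0558, and -0.25 ± 0.0958, adjusted p = 0.0577). Of the 78, 33 share exon bases with another tested gene, 25 of them on the opposite strand, and 7 share over 20% of their exon bases. Pseudogenes named after the gene are present for 36, and they exceed 5% of the gene's TPM for MRPL45 (25.4%) and MRPS31 (12.2%), neither of which passed in the mean of both siRNAs. Reads that match both copies may be split between them.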

How the data were processed

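Libraries were made from total RNA with a low-input cDNA kit and a transposase-based library kit, per the labels' protocols. Tools per the submitters' processing notes were bcl2fastq and DRAGEN. For versions, annotation, genome build and strand setting, details were not given in the sources used here. Deposited values are TPM per gene in 1 table from the authors, with no counts, so depth is unknown and no counting interval can be given. Columns were matched to libraries through the library names in the labels. Of the table's identifiers, 94.8% were found in GENCODE v29, 99.9% of these at an overlapping place, so exon overlaps use GRCh38.

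The filter kept genes that reached 1 TPM in 3 or more libraries, and log2(TPM + 1) was tested with limma 3.58.1 in R 4.3.3 (group means of 12 libraries, 8 residual degrees of freedom, options trend and robust). The batch contrast had group and batch terms. The fit was also run on simulated data whose noise was independent between libraries, so that run does not cover a batch effect. Since the labels name the replicate number a batch, it pairs the libraries across groups. Apart from results said to use the batch as a block, the siRNA fits did not use this pairing. For deviations from the group means, the median r was 0.179 among 18 same-batch pairs and -0.0974 among 36 other pairs. Deviations sum to 0 within a group, so these medians are not independent of each other.

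The members and gene lists were chosen with earlier results of these data known. Genes named were the members called with the largest changes (up to 10 per direction in the mean of both siRNAs, 8 with both siRNAs, 4 in each other comparison), the 3 highest and 3 lowest in TPM, up to 4 called genes per direction of each other list, SOX10, MT-RNR1 and MT-RNR2. Others are said to be chosen later, or are named as one of 5 or fewer, for an overlapping gene or as a marker.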

Additional observations from a re-analysis of the deposited data

How the results depend on the processing

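Results were recomputed with the batch as a block, each library left out, only the compared groups, pseudocounts of 0.1 and 5, no filter, the filter raised to 5 TPM, median-of-ratios scaling, no trend and robust options, untreated cells as the control and, chosen after seeing the data, without batch 3. Over these 22 settings the members that fell numbered 34 to 49 in the mean of both siRNAs, 28 to 43 with siSOX10_1 and 26 to 43 with siSOX10_2 (34 to 44, 28 to 38 and 26 to 35 with 1 library left out), and 31 of the 41 fell in every setting. Over the settings, 5.42% to 16.6% of all genes tested fell in the mean, 4.24% to 15.3% with siSOX10_1 and 4.04% to 14.2% with siSOX10_2. The shares that rose were 8.26% to 24.8%, 6.1% to 20.3% and 7.69% to 22.5%. The large minus small subunit difference of medians was -0.06 to 0.02. In the mean of both siRNAs 0 to 2 rose with 1 library left out, 1 without the filter, 0 with median-of-ratios scaling and 1 without trend and robust options. With siSOX10_1, 0 to 1 rose with 1 library left out, and 0 without the filter, with median-of-ratios scaling, without trend and robust options or with untreated cells as the control. With siSOX10_2, 2 to 3 rose with 1 library left out, 1 with only the compared groups, 0 with median-of-ratios scaling, 1 without trend and robust options and 5 without batch 3. In siSOX10_2 against siSOX10_1, 3 were higher with the batch as a replicate block and 1 without batch 3. Of all genes tested, 2.1% and 1.74% were higher in those fits. In batch 3, 1 to 2 were higher and 1 to 10 lower with 1 library left out (0.456% to 2.14% and 2.69% to 13.7% of all genes tested). Without the filter 1 was higher and 1 lower (0.203% and 1.33% of all genes). With median-of-ratios scaling 9 were higher and 1 lower (4.84% and 4.68%). Without trend and robust options 1 was higher and 2 lower (0.648% and 6.97%). The block moved the members that fell to 48, 43 and 40 in the mean, siSOX10_1 and siSOX10_2. In those fits 15.8%, 15% and 12.9% of all genes tested fell. Among named members, the calls that the block changed included those of MRPS9 in all 3 and of MRPL1 with each siRNA. They also included MRPL50 with siSOX10_1 and MRPS24 with siSOX10_2, and each of these now passed. The sign reversed for MRPL36 with median-of-ratios scaling (-0.02) and untreated cells as the control (-0.01), and for MRPL51 without siCNTL replicate 3 (0.01), whose values with 1 library left out ran from -0.15 to 0.01. Of 834 values for single genes, 752 kept direction and side, 79 lost the call and 3 reversed. The causes were not tested. TPM hold no depth, so what a library could not detect is unknown.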
